A study of Mus musculus with 6 samples.

Results

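The 8 genes described here encode proteins of tight junctions and of the perineurium, the cell sheath that closes each nerve fascicle off from its surroundings. They are the claudin genes Cldn1, Cldn5 and Cldn19, the junction genes Tjp1, Ocln and Marveld2, and the perineurial genes Slc2a1 and Moxd1. They were listed by name for their place in these barriers and matched by symbol to Ensembl gene IDs. All 8 were found in the deposited table of 55335 genes, and 7 of the 8 were abundant enough to be tested.

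Tight junctions seal the gap between neighbouring cells. Claudins and occludin span the membrane, and scaffold proteins such as ZO-1 (the product of Tjp1) tie them to the actin cytoskeleton. A peripheral nerve holds such seals in different cells. Perineurial cells carry claudin 1 and the glucose transporter GLUT1 (Slc2a1), the endothelium of vessels inside the nerve carries claudin 5 and GLUT1, and the myelinating Schwann cell joins its own membrane layers with claudin 19.

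Polyadenylated RNA was sequenced from lysates of sciatic nerve, which carries motor and sensory axons of the hindlimb, of mice at postnatal day 14. Control libraries (n = 3) are labelled RhoAfl/fl, homozygous for a floxed RhoA allele. The icKO libraries (n = 3) are labelled RhoAfl/fl ChATCreERT2+ and add an inducible Cre recombinase driven by the choline acetyltransferase gene, which is active in cholinergic neurons such as motoneurons. Both groups thus carry the floxed alleles. The comparison asks how the nerve's transcripts differ when RhoA deletion is aimed at the motoneurons whose axons it contains. Perineurial, endothelial and Schwann cells are not cholinergic neurons, so the driver is not aimed at the cells that make these junctions. The labels give neither the induction schedule nor the sex of the mice. Nor is it stated whether each library is a separate animal, so the p-values reflect only how far these samples spread, which may be technical.

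Levels are FPKM, fragments scaled by transcript length and by the library's total, and can be compared between genes because of the scaling by length. The smallest steps of the values put the depth at 17200000 to 20700000 fragments per library. Rhoa measured 36.5, 39.0 and 38.0 FPKM in control replicates 1 to 3, against 36.4, 33.6 and 33.2 FPKM in icKO replicates 1 to 3, which did not overlap but whose difference did not pass (limma, Benjamini-Hochberg adjusted p = 0.195). Control replicate 2 was the only library with Xist above 1 FPKM (46.1 FPKM), and it had Ddx3y at 0, so it came from a female. Skeletal muscle transcripts were highest in control replicate 1 and in icKO replicate 3, called the muscle-rich libraries here. The summed level of 21 muscle genes ranged from 294 to 1493 FPKM over the controls and from 27.2 to 1743 FPKM over the icKO nerves. Leaving out both muscle-rich libraries did not even out muscle. The mean log2(FPKM + 1) of the tested muscle genes was 3.18 and 3.44 in control replicates 2 and 3. It was 0.81 and 1.24 in icKO replicates 1 and 2, so muscle level and group went together in that setting. As a check of the tissue, the Schwann cell transcription factor gene Sox10 was at 155 FPKM or more in all 6 libraries.

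Of the 7 tested members, 2 fell in icKO nerves and none rose (limma on log2(FPKM + 1), Benjamini-Hochberg adjusted p under 0.05; no member rose at an unadjusted p under 0.05 either). In the same test 42.9% of the 12860 genes tested passed, made up of 22.1% lower and 20.8% higher in icKO nerves. The members' share of 28.6% was no larger than that of all genes. The groups did not overlap in the same 2 members, against 57.2% of all tested genes. The genes that fell were Cldn5, the endothelial claudin, and Moxd1. The other 5 differed by 0.13 or less in absolute value on the log2(FPKM + 1) scale. The median absolute difference was 0.12 for the tested members and 0.31 for all tested genes. Marveld2, with a mean under 1 FPKM, was below the filter and was not tested. Moxd1 passed the filter through its control level, since its icKO mean lay under 1 FPKM.

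**Figure D1:**
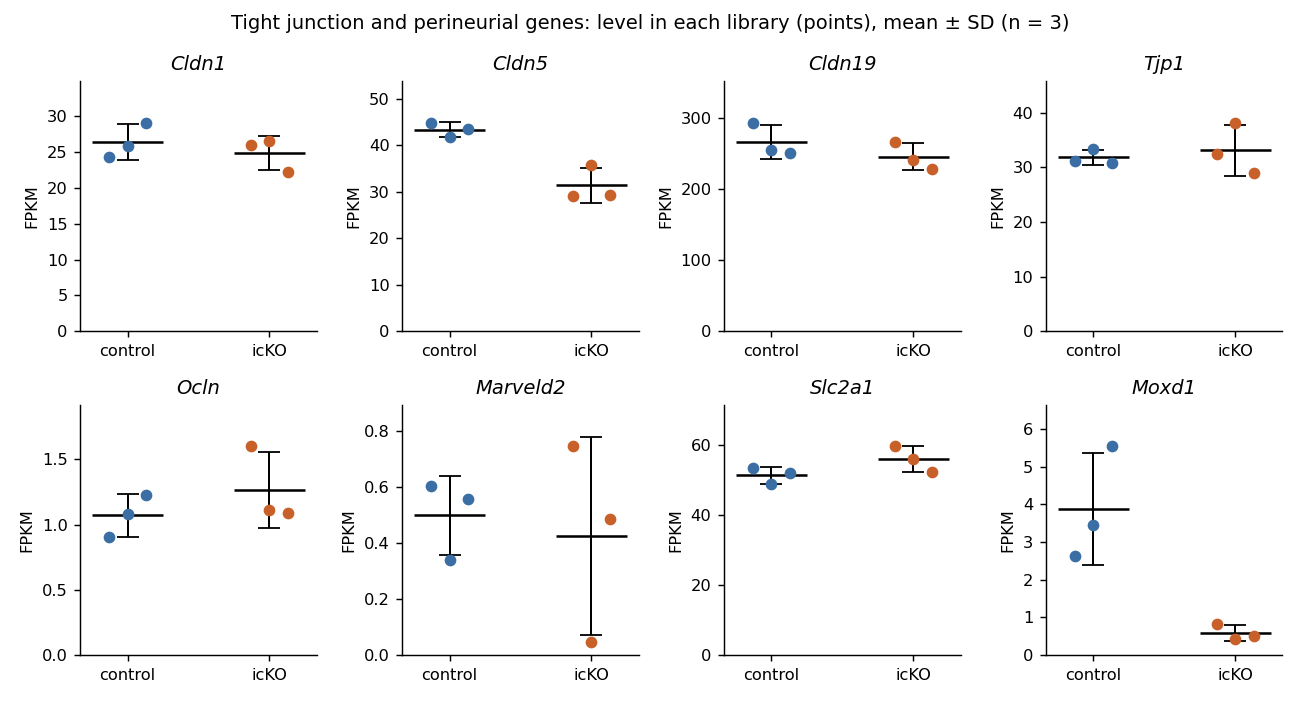
FPKM of the 8 genes in each library (points, 3 control in blue and 3 icKO in orange), with the mean (long bar) and SD (error bar); each vertical axis starts at 0. The icKO libraries lie below all control libraries for Cldn5 and Moxd1 and overlap them for the other 6 genes.

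The order of the levels in control nerves was Cldn19 (267 FPKM), Slc2a1 (51.4 FPKM), Cldn5 (43.4 FPKM), Tjp1 (31.9 FPKM), Cldn1 (26.4 FPKM), Moxd1 (3.87 FPKM), Ocln (1.07 FPKM) and Marveld2 (0.498 FPKM). No 2 neighbours in this order overlapped between their control libraries. In icKO nerves Tjp1 came before Cldn5, and Ocln before Moxd1. There the libraries of Tjp1 and Cldn5 overlapped, as did those of Moxd1 and Marveld2.

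Cldn5 (ENSMUSG00000041378) encodes claudin 5, the main claudin of endothelial tight junctions. It had control levels of 44.9, 41.8 and 43.5 FPKM, against icKO levels of 29.2, 35.8 and 29.4 FPKM. Every icKO library lay below every control library. The mean fell from 43.4 ± 1.57 to 31.5 ± 3.74 FPKM (SD, n = 3 each), a ratio of control to icKO of 1.38. The log2 difference was -0.46 (SE 0.10, 95% interval -0.70 to -0.22; limma, Benjamini-Hochberg adjusted p = 0.0119). Without both muscle-rich libraries the difference was -0.39 and no longer passed (adjusted p = 0.0653). With the muscle level of each library as a covariate the difference was -0.48 and passed (limma, Benjamini-Hochberg adjusted p = 0.0226). Without the female library it was -0.48 and passed (adjusted p = 0.0342). In a lysate, fewer cells of a type and less RNA per cell cannot be told apart.

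Moxd1 (ENSMUSG00000020000) encodes a membrane protein of the endoplasmic reticulum related to dopamine beta-hydroxylase, a copper-dependent monooxygenase. It read 2.63, 3.46 and 5.54 FPKM over the 3 controls, and the 3 icKO nerves read 0.811, 0.426 and 0.497 FPKM. The highest icKO library was below the lowest control library. The mean fell from 3.87 ± 1.50 to 0.578 ± 0.204 FPKM (SD, n = 3 each), a ratio of control to icKO of 6.70. The log2 difference was -1.59 (SE 0.22, 95% interval -2.12 to -1.06; limma, Benjamini-Hochberg adjusted p = 0.00246), a scale that understates the change of so low a gene (with a pseudocount of 0.1 the difference was -2.53). This was the fall of rank 163 among the 12860 tested genes. With a coding transcript of 3090 bases, the levels correspond to about 140 to 351 fragments per control library and 25 to 45 per icKO library.

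The stretches before the start sites of the 2 genes that fell are shown with that of Cldn1, a claudin that did not, so that their short promoter motifs can be compared. Each is the 250 bases before the annotated start, 5′ to 3′ on the gene's strand, from RefSeq (GRCm38.p6). Cldn5 is at chr16:18776597-18776846 on the plus strand, Moxd1 at chr10:24223267-24223516 on the plus strand and Cldn1 at chr16:26371840-26372089 on the minus strand. Capitals mark matches on either strand to 7 short motifs. The general promoter motifs were the CCAAT box with the letters CCAAT, the GC box with the letters GGGCGG, and the TATA box with the letters TATAAA. Factor motifs were the core of ETS factors with the letters AGGAAG, the core of FoxO factors with the letters GTAAACA, the core of Sox factors with the letters ACAAAG, and the glucocorticoid receptor's short site with the letters AGAACA. No matches overlapped.
Cldn5: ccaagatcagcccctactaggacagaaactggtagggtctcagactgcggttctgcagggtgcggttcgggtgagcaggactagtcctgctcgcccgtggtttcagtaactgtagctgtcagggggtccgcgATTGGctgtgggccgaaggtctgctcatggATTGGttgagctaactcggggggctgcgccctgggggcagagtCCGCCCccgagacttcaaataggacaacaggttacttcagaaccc
Moxd1: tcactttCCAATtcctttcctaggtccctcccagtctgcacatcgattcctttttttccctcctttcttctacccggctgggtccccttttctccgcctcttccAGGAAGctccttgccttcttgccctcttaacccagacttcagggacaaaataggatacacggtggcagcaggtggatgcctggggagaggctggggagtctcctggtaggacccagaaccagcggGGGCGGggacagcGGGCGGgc
Cldn1: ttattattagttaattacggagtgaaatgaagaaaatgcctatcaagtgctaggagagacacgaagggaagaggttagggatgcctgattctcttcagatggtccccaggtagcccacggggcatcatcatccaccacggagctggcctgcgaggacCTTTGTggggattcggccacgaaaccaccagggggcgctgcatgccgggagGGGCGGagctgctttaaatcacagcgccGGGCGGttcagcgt
Cldn5 held 2 CCAAT boxes, read as ATTGG on this strand, and 1 GC box. Moxd1 held 1 CCAAT box, 1 ETS core and 2 GC boxes, and Cldn1 held 2 GC boxes and 1 Sox core. Among 32851 windows of the same length, 33.8% held a CCAAT box, 32.7% a GC box, 29.5% an ETS core and 16.5% a Sox core. None of the 3 windows held the letters searched for the TATA box, the glucocorticoid receptor site or the FoxO core, which occurred in 12.4%, 16.1% and 3.17% of windows. These matches describe letters only and were not tied to the levels.

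Cldn19 (ENSMUSG00000066058), the claudin of Schwann cell membranes, was the most abundant of the 8 genes. It measured 294, 255 and 251 FPKM in control replicates 1 to 3, against 267, 242 and 229 FPKM in icKO replicates 1 to 3. The groups overlapped, and the difference of -0.11 (95% interval -0.36 to 0.13) did not pass (limma, Benjamini-Hochberg adjusted p = 0.399). Without both muscle-rich libraries it was 0.01.

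Cldn1 (ENSMUSG00000022512), the perineurial claudin, had control levels of 24.3, 25.8 and 29.1 FPKM, against icKO levels of 26.0, 26.5 and 22.2 FPKM. Both icKO replicates 1 and 2 lay within the control range and replicate 3 below it. The difference was -0.08 (95% interval -0.33 to 0.17; limma, Benjamini-Hochberg adjusted p = 0.553). The interval allows a change in either direction.

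Slc2a1 (ENSMUSG00000028645) encodes GLUT1, which carries glucose across perineurial and endothelial cells. It read 53.5, 48.8 and 52.0 FPKM over the 3 controls, and the 3 icKO nerves read 59.7, 56.2 and 52.3 FPKM. Only icKO replicate 3 lay within the control range, and the other icKO libraries lay above it. The difference of 0.12 (95% interval -0.08 to 0.32) did not pass (limma, Benjamini-Hochberg adjusted p = 0.279).

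Tjp1 (ENSMUSG00000030516), the gene of the scaffold ZO-1, measured 31.2, 33.4 and 30.9 FPKM in control replicates 1 to 3, against 32.4, 38.2 and 28.9 FPKM in icKO replicates 1 to 3. The icKO replicates lay within, above and below the control range. The difference was 0.05 (95% interval -0.22 to 0.32; limma, Benjamini-Hochberg adjusted p = 0.752), and it changed sign without icKO replicate 2 (-0.05) and with the muscle level of each library as a covariate (-0.03).

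Ocln (ENSMUSG00000021638), the occludin gene, had control levels of 0.904, 1.08 and 1.23 FPKM, against icKO levels of 1.60, 1.11 and 1.09 FPKM. Only icKO replicate 1 lay outside the control range, and the difference of 0.13 (95% interval -0.18 to 0.43) did not pass (limma, Benjamini-Hochberg adjusted p = 0.451). Marveld2 (ENSMUSG00000021636) encodes tricellulin, which seals the points where 3 cells meet. It read 0.602, 0.338 and 0.555 FPKM over the 3 controls, and the 3 icKO nerves read 0.744, 0.0465 and 0.484 FPKM, with overlapping groups. For its shortest and longest coding transcripts, the value of icKO replicate 2 corresponds to about 2 or 3 fragments, and the other 5 libraries to 13 to 41. Marveld2 was below the filter, so its difference was not tested. Without stated use of strand, levels of genes with overlapping gene models are uncertain, which in the RefSeq annotation holds for Marveld2, Ocln, Cldn19 and Slc2a1, and also for Plvap, Jam2 and Cldn14, described with their lists.

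**Figure D2:**
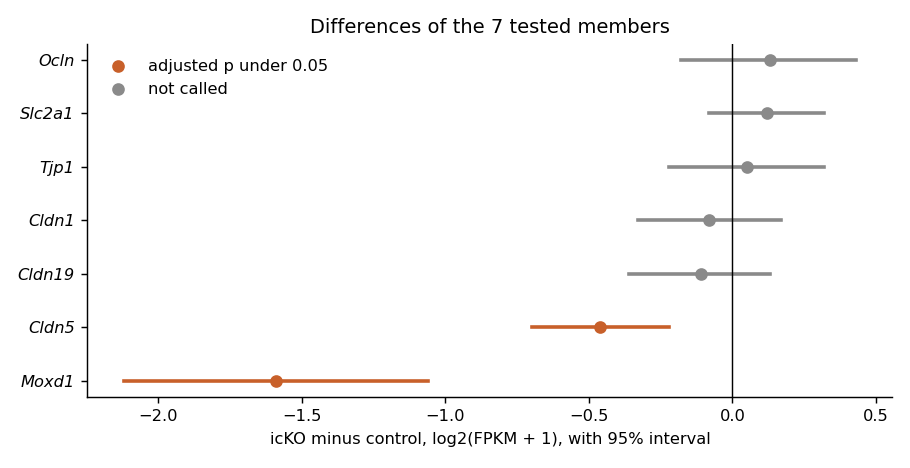
Difference of icKO minus control on the log2(FPKM + 1) scale (points) with its 95% interval (lines) for the 7 tested members, 3 libraries per group. The intervals of Moxd1 (-2.12 to -1.06) and Cldn5 (-0.70 to -0.22) lie below 0 and the other 5 span it.

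Cldn5 was next set against other transcripts of the endothelium. Of 12 endothelial markers, 3 fell, 1 rose and 8 did not pass, a share of 33.3% beside 42.9% for all tested genes. The median difference was -0.09, beside -0.01 for all tested genes. Vwf, a stored clotting factor, fell from 10.9 ± 1.18 to 5.42 ± 0.47 FPKM, and the VEGF receptor gene Kdr from 6.06 ± 0.375 to 3.77 ± 0.251 FPKM. Pecam1, an endothelial adhesion molecule, rose, from 10.9, 11.2 and 10.8 FPKM to 12.8, 14.0 and 15.9 FPKM, while Cdh5, the endothelial cadherin, was at 17.5 ± 0.707 and 15.9 ± 1.20 FPKM and did not pass (SD, n = 3 each; limma, Benjamini-Hochberg adjusted p = 0.239). The summed level of the 12 markers was 99.2 to 100.2 FPKM in control and 82.6 to 93.9 FPKM in icKO libraries. Without control replicate 2 or control replicate 3, 2 markers passed, both lower. The rise of Pecam1 passed in 13 of 19 alternative analyses and was also lost without control replicate 1, without icKO replicate 2 and without both muscle-rich libraries.

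Ratios within a library do not depend on how libraries are scaled to each other. Per unit of Cdh5, Cldn5 was at 2.69, 2.37 and 2.41 in control and at 1.99, 2.10 and 1.86 in icKO libraries. Per unit of Pecam1 it was at 4.10, 3.72 and 4.02 in control and at 2.28, 2.56 and 1.85 in icKO libraries. Neither ratio overlapped between the groups. Of these denominators, Pecam1 rose and Cdh5 did not pass. Ratios to markers that fell were not formed. The means of Vwf and Kdr fell by a larger factor than that of Cldn5, so Cldn5 did not fall relative to every endothelial marker. On the log2(FPKM + 1) scale, Cldn5 stood 2.46 ± 0.07 above the mean of the 12 endothelial markers in control and 2.15 ± 0.10 above it in icKO libraries (SD, n = 3 each). That difference of -0.31 had an exact two-sided permutation p = 0.1, the smallest that 3 against 3 libraries can give.

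Cldn19 and Cldn1 were set against their own cell types in the same way. Relative to the mean of 12 Schwann cell markers, Cldn19 stood at -0.24, -0.26 and -0.34 in control and at -0.39, -0.41 and -0.43 in icKO libraries. These values did not overlap, with a difference of -0.14 (exact two-sided permutation p = 0.1, again the smallest possible). Of these 12 markers 4 rose, 3 fell and 5 did not pass, a share of 58.3% beside 42.9% for all tested genes. Relative to 9 perineurial markers, Cldn1 stood at 1.67 ± 0.12 in control and 1.61 ± 0.18 in icKO libraries (SD, n = 3 each; exact two-sided permutation p = 0.7), and the small difference changed sign without icKO replicate 3.

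**Figure D3:**
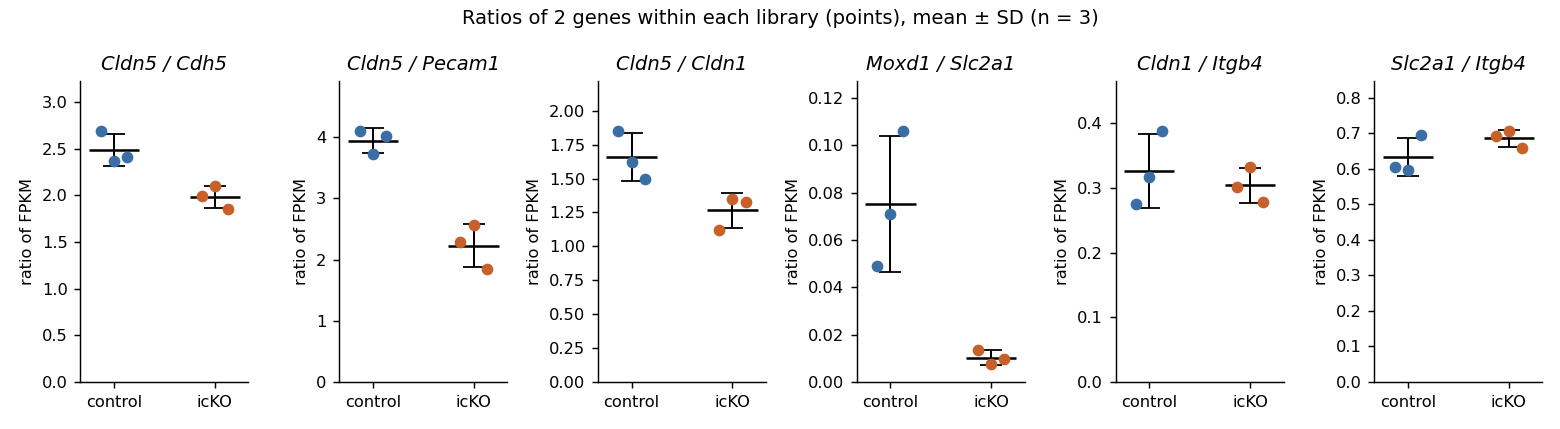
Ratio of the FPKM of 2 genes within each library (points, control in blue and icKO in orange) with mean and SD of 3 libraries; each vertical axis starts at 0. The ratios drawn with Cldn5 (to Cdh5, Pecam1 and Cldn1) or Moxd1 (to Slc2a1) on top do not overlap between groups. Those of Cldn1 and Slc2a1 to the integrin gene Itgb4, which perineurial cells share with Schwann cells, do.

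Markers of other cell types of the lysate were counted in the same libraries. Of all tested genes 42.9% passed, made up of 22.1% lower and 20.8% higher in icKO nerves. Claudin 5 is also made by lymphatic endothelium. Of 7 lymphatic markers 4 were tested and 2 fell, Reln and Ccl21a. The summed level of the 7 was 46.9 to 76.4 FPKM in control and 23.9 to 28.9 FPKM in icKO libraries. The chemokine gene Ccl21a went from control levels of 12.5, 31.0 and 21.8 FPKM to icKO levels of 0.852, 0 and 2.74 FPKM, and the defining gene Prox1 was at 0.444 FPKM or less in all 6 libraries. All 8 adipocyte markers fell, with sums of 471 to 576 FPKM in control and 104 to 172 FPKM in icKO libraries. Of 10 fibroblast markers 5 fell and 1 rose, with sums of 731 to 1347 FPKM and 530.5 to 554 FPKM. Of 9 markers of pericytes and smooth muscle 3 fell, with sums of 239 to 339 FPKM in the controls and 169.9 to 235 FPKM in the icKO nerves. That count was 1 without control replicate 1 or icKO replicate 2 and 0 without control replicate 2 or icKO replicate 1. The part of these cells in the falls of Cldn5 and Moxd1 was not tested.

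Genes tied to the endothelial barrier moved both ways. Of 21 listed, 16 were tested, of which 5 fell, Cldn5 itself among them, and 4 rose. The share called was 56.2% beside the 42.9% of all tested genes, with a median difference of 0.03. Mfsd2a, a lipid transporter that keeps vesicle traffic low in brain endothelium, measured 56.8, 58.3 and 58.7 FPKM in control replicates 1 to 3, against 30.6, 29.2 and 26.9 FPKM in icKO replicates 1 to 3. Plvap, which forms the diaphragms of leaky vessels, had control levels of 21.2, 26.1 and 22.0 FPKM, against icKO levels of 7.57, 8.46 and 9.65 FPKM. As background, brain vessels with a tight barrier are known for high Mfsd2a and low Plvap, and here both genes fell. Their log2 differences were -0.98 (SE 0.08) and -1.34 (SE 0.12; limma, Benjamini-Hochberg adjusted p = 0.000607 and 0.000735). The proteoglycan gene Spock2 fell from 22.8 ± 1.54 to 12.2 ± 1.43 FPKM, and the caveolin gene Cav1 fell too. The amino acid transporter genes Slc7a5 and Slc3a2, whose products form 1 complex, both rose. Slc7a5 went from 32.8 ± 5.42 to 55.0 ± 13.2 FPKM, and Slc3a2 went from 78.1 ± 2.58 to 108 ± 7.68 FPKM. The efflux transporter gene Abcc4 rose from 2.28 ± 0.226 to 3.89 ± 0.481 FPKM (SD, n = 3 each), and the transcription factor gene Sox17 rose as well. Slc7a5 did not pass without control replicate 2 or control replicate 3, nor Cav1 without control replicate 2 or without both muscle-rich libraries. Sox17 passed in 11 of 18 alternative analyses, and was lost when any single control replicate, icKO replicate 1 or icKO replicate 2 was left out. Several of these genes are made by other cells of the nerve too, so the list is not specific to vessels.

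Perineurial genes, listed with Moxd1, Cldn1 and Slc2a1 among them, also split, as did all tested genes (22.1% lower, 20.8% higher). Of 15 tested, 3 fell, 3 rose and 9 did not pass. That share of 40.0% was near the 42.9% of all tested genes, and the list's median difference was 0.00. Itgb4, an integrin subunit that perineurial cells share with Schwann cells, was at 81.6 ± 6.64 and 81.7 ± 3.80 FPKM (SD, n = 3 each). Lypd2, a surface protein of the Ly6 family, fell alongside Moxd1, from 4.10, 8.24 and 7.68 FPKM in control to 1.03, 1.39 and 0.995 FPKM in icKO libraries. Its log2 difference of -1.80 (SE 0.23; in limma, Benjamini-Hochberg adjusted p = 0.00183) was larger in size than that of Moxd1, while the ratio of control to icKO means was smaller, at 5.87 against 6.70. Sfrp5, a secreted Wnt antagonist, fell from 226 ± 15.1 to 131 ± 30.2 FPKM, though not without both muscle-rich libraries (adjusted p = 0.0597). The transcription factor gene Klf5 was at 2.52, 2.76 and 3.47 FPKM in control and rose to 7.74, 5.28 and 7.50 FPKM in icKO libraries. Gli1, a hedgehog target, rose from 11.3 ± 0.595 to 15.1 ± 0.763 FPKM, and the keratin gene Krt19 from 10.2 ± 0.523 to 12.8 ± 1.23 FPKM (SD, n = 3 each). Krt19 passed in 10 of 19 alternative analyses, and in none that left out a control replicate, icKO replicate 1 or icKO replicate 3.

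**Figure D4:**
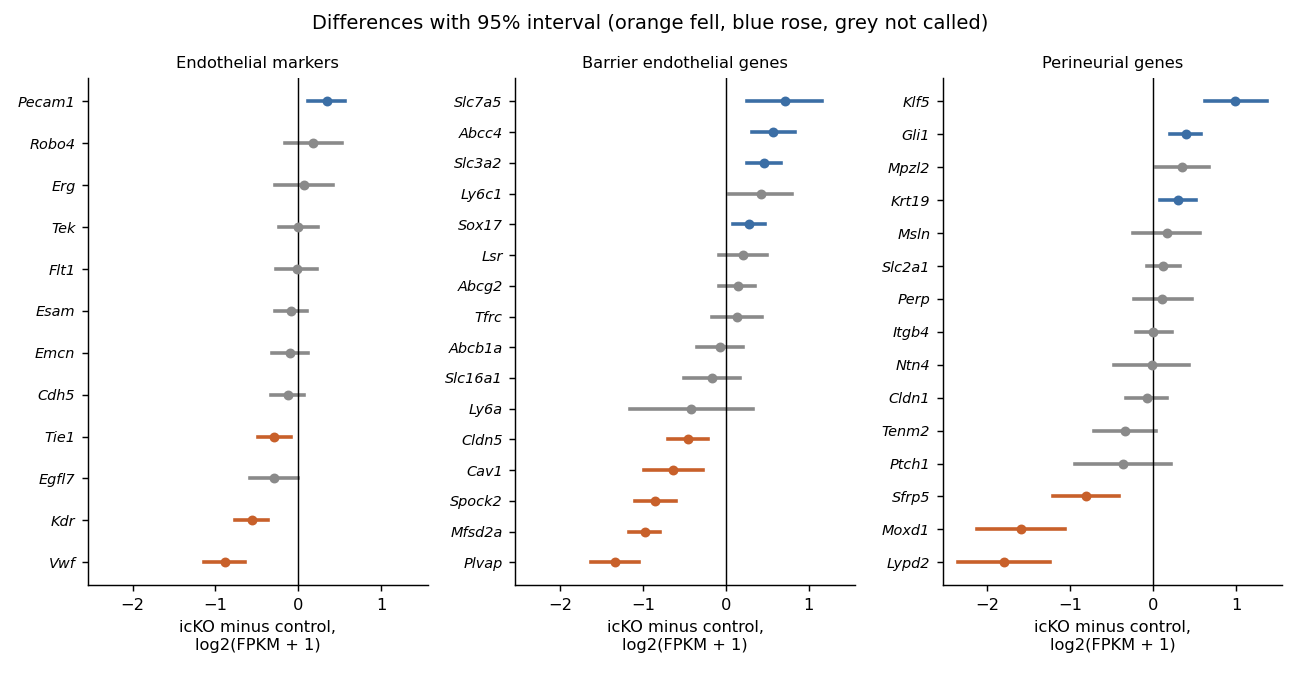
Difference of icKO minus control on the log2(FPKM + 1) scale (points) with 95% interval (lines) for tested endothelial markers, barrier endothelial genes and perineurial genes, with 3 libraries per group. Each set holds genes that fell (orange) and rose (blue), among them Plvap at -1.34 and Klf5 at 0.99.

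Per unit of Slc2a1, Moxd1 was at 0.0491, 0.0709 and 0.106 in control and at 0.0136, 0.00759 and 0.0095 in icKO libraries. Per unit of Itgb4, Cldn1 was at 0.327 ± 0.0568 and 0.304 ± 0.0268 and Slc2a1 at 0.632 ± 0.0534 and 0.686 ± 0.025 in control and icKO libraries (SD, n = 3 each). The first ratio separated the groups and the other two did not. Of the other copper-dependent monooxygenases related to Moxd1 in the list, Pam, which amidates peptide hormones, was the only one above the filter. It fell from 19.4 ± 0.855 to 8.16 ± 0.438 FPKM, with a difference of -1.16 in log2 units (SE 0.08; limma, Benjamini-Hochberg adjusted p = 0.000404). Dbh and Moxd2 were at 0.33 FPKM or less in all 6 libraries.

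The list of glucose transporters, Slc2a1 included, gave a background for this gene. Of 11 listed 5 were tested, of which 2 rose, 1 fell and 2 did not pass, Slc2a1 among the latter. The share called was 60.0%, beside 42.9% for all tested genes. Slc2a4, the insulin-responsive transporter GLUT4, rose from 4.65 ± 0.253 to 10.3 ± 2.03 FPKM, and Slc2a8 from 5.53 ± 0.0993 to 9.48 ± 1.22 FPKM. Slc2a6 fell from 3.87 ± 0.284 to 0.856 ± 0.311 FPKM (SD, n = 3 each), and it passed the filter through its control level. In icKO libraries Slc2a1 was still the most abundant of them, at 52.3 FPKM or more.

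The claudin family as a whole held 22 listed genes. Of these, 14 were below the filter, 4 of them at 0 in all 6 libraries, and 8 were tested. Among the 8 tested claudins 2 fell and 2 rose, with a median difference of -0.04. As a share, these calls lay only slightly above the 42.9% of all tested genes. Besides Cldn5, Cldn14 fell, from 3.96, 3.39 and 4.46 FPKM in control to 1.18, 0.591 and 1.36 FPKM in icKO libraries. Its log2 difference was -1.29 (SE 0.17; in limma, Benjamini-Hochberg adjusted p = 0.00198), larger in size than that of Cldn5. Cldn11, known from the myelin of oligodendrocytes, rose from 2.11 ± 0.411 to 3.38 ± 0.731 FPKM, and Cldn24 from 2.14 ± 0.428 to 4.05 ± 0.949 FPKM (SD, n = 3 each). Cldn11 passed in 9 of 18 alternative analyses, and in no analysis without a control replicate, icKO replicate 1 or icKO replicate 3. Without control replicate 2 or control replicate 3 neither rise passed, and the 2 falls were left. Without both muscle-rich libraries 2 claudins passed. Cldn22, the gene next to Cldn24, was below the filter at 0.29 to 0.595 FPKM in control and 0.949 to 1.92 FPKM in icKO libraries. Fragments could be shared between these neighbours, so both levels are uncertain. Cldn3 was also below it, at 0.092 to 0.541 FPKM in control and 0.645 to 1.70 FPKM in icKO libraries. Cldn22 and Cldn3 were chosen after their values were seen.

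Among 9 tested membrane proteins of tight junctions other than claudins, Ocln included, 1 fell, none rose and 8 did not pass (limma, Benjamini-Hochberg adjusted p under 0.05). The share was 11.1%, beside 42.9% for all tested genes. The median difference was 0.09. Without icKO replicate 3, 3 genes passed, 2 higher and 1 lower in icKO nerves. Without both muscle-rich libraries 2 passed, 1 higher and 1 lower. The gene that fell was Jam2, a junctional adhesion molecule of endothelial and other cells. It read 6.30, 8.79 and 9.27 FPKM over the 3 controls, and the 3 icKO nerves read 4.18, 3.49 and 4.17 FPKM, with a difference of -0.87 in log2 units (SE 0.15; limma, Benjamini-Hochberg adjusted p = 0.00444). Jam3, a relative found in Schwann cells, was the most abundant gene of the list, at 116 ± 8.46 and 114 ± 11.1 FPKM (SD, n = 3 each), and did not pass.

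Scaffold and polarity proteins, the list that holds Tjp1, had 24 tested genes. Of these 4 fell, 3 rose and 17 did not pass. That share of 29.2% was below the 42.9% of all tested genes, and the median difference was -0.11. Cgnl1, a cingulin-like protein that links junctions to actin and microtubules, fell from 8.77 ± 1.73 to 5.41 ± 0.802 FPKM. Patj, a polarity scaffold, fell from 1.39 ± 0.0441 to 0.632 ± 0.0465 FPKM, and it passed the filter through its control level. Pard6g, a partner of atypical protein kinase C, rose from 7.91 ± 0.569 to 13.1 ± 1.81 FPKM, and the junctional RNA-binding protein gene Ybx3 from 46.9 ± 2.74 to 62.8 ± 6.87 FPKM (SD, n = 3 each). Tjap1 rose and Pard6b fell, and they passed in 10 of 19 and 11 of 18 alternative analyses. Both were lost when control replicate 2 or 3, or icKO replicate 1 or 2, was left out. Cgnl1 was lost without control replicate 2, control replicate 3 or icKO replicate 2, and Ybx3 without control replicate 3 or without both muscle-rich libraries. The number of scaffold genes called dropped from 7 to 3 without control replicate 2 and to 2 without control replicate 3. Without icKO replicate 2 it was 4.

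Adherens junctions lie beside tight junctions and hold cells together through cadherins and catenins. Of 14 tested genes 5 fell, none rose and 9 did not pass (limma, Benjamini-Hochberg adjusted p under 0.05). That share of 35.7% was below the 42.9% of all tested genes, and the median difference was -0.32. Cdh1, the E-cadherin that Schwann cells use in junctions between their own membrane layers, had control levels of 54.7, 53.6 and 48.3 FPKM, against icKO levels of 26.4, 13.7 and 36.9 FPKM. Each icKO nerve was lower than each control nerve, with a wide spread, and the difference of -1.10 (SE 0.32; in limma, Benjamini-Hochberg adjusted p = 0.0313) did not pass in 6 of 19 alternative analyses, among them those without icKO replicate 1 or without any single control replicate. Of 9 keratinocyte and epithelial markers, Cdh1 among them, 3 were tested. Of these 1 fell (Cdh1 itself), 1 rose and 1 did not pass, a share of 66.7%. The summed level of the 9 was 50.5 to 60.1 FPKM in the controls and 19.9 to 46.3 FPKM in the icKO nerves. Most of that sum was Cdh1 itself in every library. The epithelial gene Sfn rose, from 3.16, 1.55 and 0.622 FPKM to 3.57, 5.55 and 7.95 FPKM, but did not pass without control replicate 2, control replicate 3, icKO replicate 2 or icKO replicate 3. Krt10 stood at 0.68 to 2.01 FPKM and did not pass. Epcam, Krt5, Krt8, Krt14 and Dsp were at 0.0442 FPKM or less in every library, and Krt18 at 0.27 FPKM or less. The part of such cells in the fall of Cdh1 was not tested. Per unit of Cldn19, Cdh1 was at 0.186, 0.21 and 0.192 in control and at 0.0989, 0.0565 and 0.161 in icKO libraries. The alpha-catenin gene Ctnna1 fell from 64.8 ± 11.1 to 39.2 ± 4.48 FPKM, and the vinculin gene Vcl fell from 11.9 ± 1.87 to 6.97 ± 0.774 FPKM (SD, n = 3 each). The number called was 2 without control replicate 2 or control replicate 3, and 3 without icKO replicate 1 or icKO replicate 2. Under median-of-ratios scaling, and likewise under quantile scaling, 4 adherens genes fell and 1 rose.

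**Figure D5:**
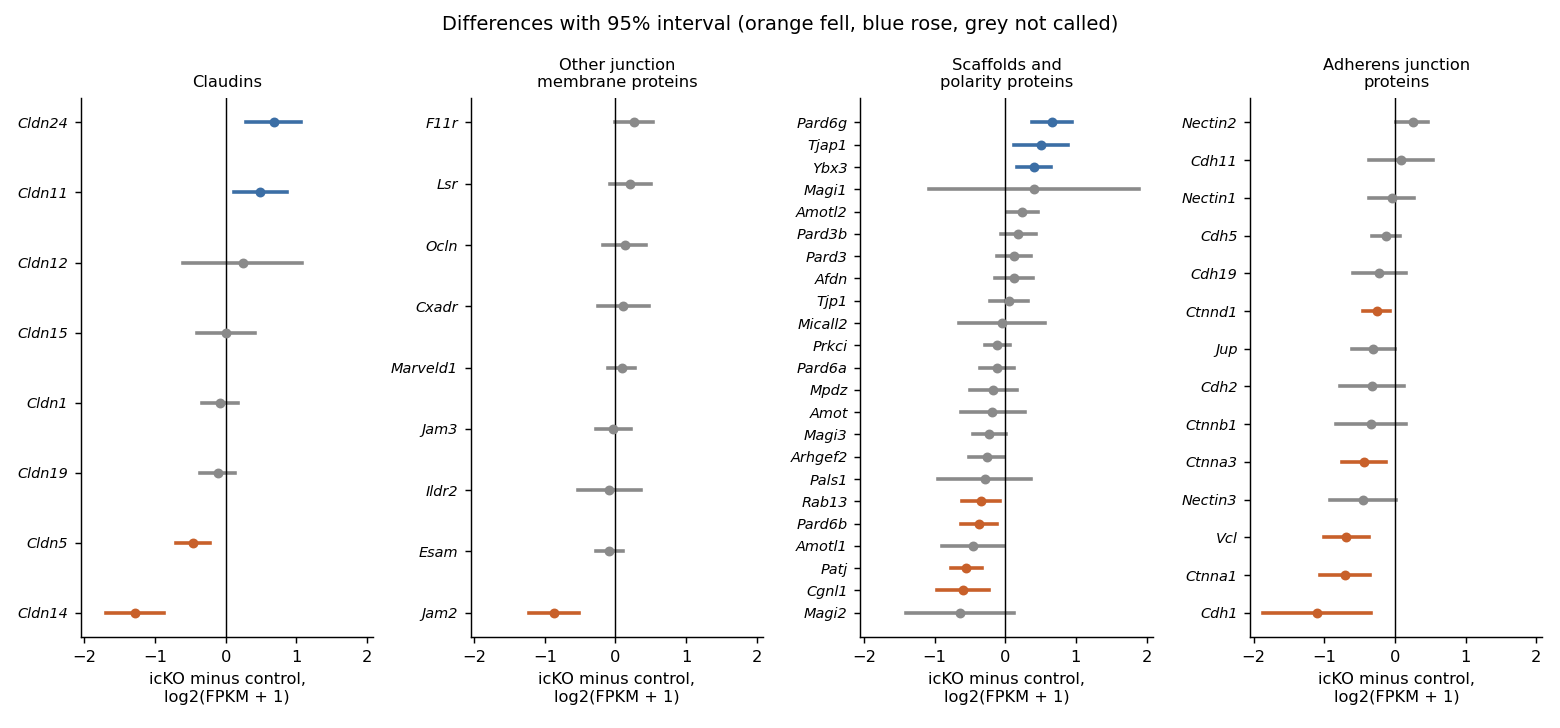
Difference of icKO minus control on the log2(FPKM + 1) scale (points) with 95% interval (lines) for tested genes of 4 junction lists (1 scaffold gene is not drawn), with 3 libraries per group. Claudins and scaffolds hold falls (orange) and rises (blue). Jam2 at -0.87 and 5 adherens genes down to Cdh1 at -1.10 fell, with no gene of their lists rising in the main test.

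The genes most like each claudin across the 6 libraries were found by Pearson's r of log2(FPKM + 1) over 6885 other genes with a symbol and a mean of at least 5 FPKM. For Cldn5 these were Crtc3 (r = 0.994), Phyh (r = 0.994) and Samhd1 (r = 0.991), and 108 genes reached an r of 0.95. For Cldn1 they were Txndc5 (r = 0.974), Apbb1 (r = 0.972) and Ago1 (r = 0.956), with 4 genes at 0.95 or more. For Cldn19 they were Ypel2 (r = 0.979), Lysmd1 (r = 0.956) and Inppl1 (r = 0.952), with 3 genes. The 6 points share library, depth and group, and genes that differ between the groups correlate through that difference, so these values are descriptions.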

How the data were processed

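The values are FPKM, as the authors deposited them, for 55335 genes and 6 libraries. The tools named per the submitters' processing notes, with no role or order, are DESeq2 1.16.1, StringTie 1.3.1c, STAR and FastQC 0.11.2, and the build is GRCm39. How strand and multiply mapped reads were handled, and the annotation, is not given in the sources used here, so overlapping genes can share fragments. Symbols came from GENCODE release M21 for 55154 IDs (225 of 226 list genes matched, Pals1 as Mpp5).

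Genes averaging 1 FPKM or more entered a two-sided limma test (version 3.58.1, R 4.3.3) of log2(FPKM + 1), with a variance trend and no covariate. P-values were adjusted by Benjamini-Hochberg over 12860 genes and called under 0.05. Intervals are limma's 95% intervals, not adjusted. Rose and fell refer to calls, in icKO relative to control. Fragments per library were estimated from the FPKM steps of 34186 genes with 1 transcript, and promoters are RefSeq sequences, with windows found for all 8 members. The procedure was tested on simulated data. Genes were drawn there independently of each other, so differences shared by many genes, such as muscle level, were not covered.

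The members and gene lists were chosen with earlier results of these data known. Genes named are the members, Rhoa, up to 3 rises and 3 falls per list among called genes without overlap, and the 3 genes most like each claudin. Others named were chosen after their values were seen. The alternatives changed the pseudocount (0.1, 0.01), the filter (none, or a mean of 5 FPKM), the scaling (3 kinds), the limma settings and the covariates (a replicate block, a muscle level), or left out libraries. Some genes are not reported here.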

Additional observations from a re-analysis of the deposited data

How the results depend on the processing

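The 2 members that fell, Cldn5 and Moxd1, both passed in 17 of 19 alternatives. With a mean of at least 5 FPKM only 1 member passed, because Moxd1 was no longer tested, and 3308 genes passed in place of 5516. Without both muscle-rich libraries 1 member passed, Moxd1. With single libraries left out 2 members passed each time, and 3750 to 5458 genes. The differences of Cldn19 (0.01 without both muscle-rich libraries) and Tjp1 (-0.03 with the muscle covariate, -0.05 without icKO replicate 2, in a range of -0.05 to 0.14 with single libraries left out) changed sign, as did Cldn1 relative to perineurial markers (0.03 without icKO replicate 3, 0.08 without both muscle-rich libraries). That last value ranged from -0.15 to 0.03 with single libraries left out. The cause was not tested. With the replicate number as a block 2 members and 4596 genes passed; same-numbered libraries correlated in their deviations at -0.103, 0.043 and -0.055, so the numbers were not taken as pairs. Scalings moved the median difference of all genes by less than 0.1.

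Over 36 named genes, 615 of 673 values kept direction and call, 55 lost the call and 3 changed sign. Over 19 gene lists, 52 of 361 counts moved by more than 1.5 times. Marveld2 rested on about 2 to 41 fragments per library.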
